A study of Homo sapiens with 9 samples.

Results

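MHC class I antigen presentation was examined through 9 genes in TE13 cells, an established esophageal squamous cell carcinoma (ESCC) line. The genes were taken by symbol from the deposited table of 60605 genes: the heavy chain genes HLA-B, HLA-C, HLA-E and HLA-F, the light chain gene B2M, the transporter genes TAP1 and TAP2, the tapasin gene TAPBP and the transcriptional regulator NLRC5. Each symbol had 1 row in the table, and all 9 genes passed the filter on low values that left 21395 genes for testing. Control siRNA or 1 of a pair of siRNAs against PARylator, siRNA.1 and siRNA.2, had been transfected into the cells, and each condition has 3 RNA-seq libraries. PARylator is the long noncoding RNA LINC00885. All 9 libraries come from the same cell line, and no other allele or agent is given for any condition. The study calls the libraries of a condition experimental repeats, and the labels do not say whether these were separate cultures, so p-values measure the spread between these libraries, which may be technical. Numbering of the siRNAs follows the labels of the libraries.

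Total counts on genes lay between 15337917 and 22559998 per library. Replicate libraries were more different than counting noise alone would make them (chi-square over its degrees of freedom, 2.73 to 4.40), and each is 1 sample here. LINC00885 was near the limit of this depth, with 6, 7 and 12 counts in the control libraries, 4, 5 and 2 under siRNA.1, and 2, 0 and 4 under siRNA.2. Its log2 fold change was -1.21 under siRNA.1 (SE 0.95, adjusted p = 0.376 from edgeR) and -2.33 under siRNA.2 (SE 1.01, adjusted p = 0.0659), so neither passed the test. At so few counts the knockdown cannot be checked firmly in these libraries. The study itself measured it by qPCR and reports PARylator knockdown in TE13 cells. All 9 squamous epithelial markers exceeded 1 FPKM in every condition, and their summed level lay between 1327 and 1530 FPKM. This sum hides changes of single markers in both directions. With control siRNA, siRNA.1 and siRNA.2, KRT5 averaged 142, 40.0 and 55.8 FPKM, and CDH1 133, 123 and 93.3. KRT6A averaged 78.7, 102 and 118 FPKM, and EPCAM 99.0, 137 and 136. FPKM is the count scaled by the exonic length of the gene and by the total count of the library, so that levels of different genes can be set side by side.

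MHC class I molecules carry short peptides from inside the cell to its surface, where cytotoxic T cells and natural killer cells inspect them. The proteasome and its inducible immunoproteasome cut proteins into peptides, the TAP1-TAP2 transporter moves the peptides into the endoplasmic reticulum, and tapasin with other chaperones helps load them onto a heavy chain paired with the B2M light chain. Interferons raise much of this pathway, and NLRC5 is the main transactivator of the class I genes, acting with the RFX, CREB/ATF and NF-Y factors bound to their promoters.

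In the deposited table, which the processing notes place on GRCh38, 7 of the 9 genes lie in the MHC region of chromosome 6. The heavy chain genes are HLA-B (ENSG00000234745, chr6:31353872-31357188, minus strand), HLA-C (ENSG00000204525, chr6:31268749-31272130, minus strand), HLA-E (ENSG00000204592, chr6:30489509-30494194, plus strand) and HLA-F (ENSG00000204642, chr6:29722775-29738528, plus strand). TAP1 (ENSG00000168394, chr6:32845209-32853816) and TAP2 (ENSG00000204267, chr6:32821833-32838770) are neighbours on the minus strand, as is the more distant TAPBP (ENSG00000231925, chr6:33299694-33314387). Outside the MHC lie B2M (ENSG00000166710, chr15:44711487-44718851, plus strand) and NLRC5 (ENSG00000140853, chr16:56989485-57083531, plus strand). GENCODE release 44 gives the same start and end for 5 of the 9 genes, and types all 9 as protein-coding.

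RefSeq's promoter table (GRCh38.p14) held 7 of the 9 genes, without HLA-E and NLRC5. The promoters below belong to genes that moved together or, for TAPBP, against the others. HLA-C also moved with them, and its promoter was searched but is not printed. Each runs 5′ to 3′ in the direction of the gene, from 200 bases before the start site to base 50 after it. Capitals mark matches to the interferon-stimulated response element (GAAANNGAAA) or the gamma-activated site (TTCNNNGAA) and, in the HLA genes and B2M, to the CCAAT box, the motif bound by NF-Y, on either strand.
HLA-B, chr6:31357130-31357379, minus strand: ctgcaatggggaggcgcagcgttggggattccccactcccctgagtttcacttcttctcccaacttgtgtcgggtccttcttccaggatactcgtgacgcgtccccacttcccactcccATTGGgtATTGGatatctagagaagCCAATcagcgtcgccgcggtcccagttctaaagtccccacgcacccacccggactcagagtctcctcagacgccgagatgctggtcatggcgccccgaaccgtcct
HLA-F, chr6:29723234-29723483, plus strand: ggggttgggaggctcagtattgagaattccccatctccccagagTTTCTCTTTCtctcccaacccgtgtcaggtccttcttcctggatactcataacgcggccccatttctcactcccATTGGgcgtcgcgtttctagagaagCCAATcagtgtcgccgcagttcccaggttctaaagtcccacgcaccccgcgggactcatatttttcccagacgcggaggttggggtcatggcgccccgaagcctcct
B2M, chr15:44711317-44711566, plus strand: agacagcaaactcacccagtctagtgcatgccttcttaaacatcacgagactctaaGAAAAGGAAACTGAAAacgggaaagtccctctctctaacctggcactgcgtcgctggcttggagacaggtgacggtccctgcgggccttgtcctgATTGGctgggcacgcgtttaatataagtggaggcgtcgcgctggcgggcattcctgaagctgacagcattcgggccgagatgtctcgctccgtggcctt
TAP1, chr6:32853655-32853904, minus strand: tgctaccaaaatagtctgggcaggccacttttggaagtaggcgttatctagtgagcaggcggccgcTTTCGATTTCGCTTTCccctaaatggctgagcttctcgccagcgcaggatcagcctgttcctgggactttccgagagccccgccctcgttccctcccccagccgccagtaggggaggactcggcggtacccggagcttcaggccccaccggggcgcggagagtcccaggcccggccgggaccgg
TAP2, chr6:32838690-32838939, minus strand: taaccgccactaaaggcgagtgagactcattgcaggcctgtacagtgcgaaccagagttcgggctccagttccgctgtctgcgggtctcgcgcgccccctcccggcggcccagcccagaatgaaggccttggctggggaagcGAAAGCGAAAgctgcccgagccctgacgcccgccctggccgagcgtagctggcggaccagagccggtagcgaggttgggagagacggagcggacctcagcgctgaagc
TAPBP, chr6:33314029-33314278, minus strand: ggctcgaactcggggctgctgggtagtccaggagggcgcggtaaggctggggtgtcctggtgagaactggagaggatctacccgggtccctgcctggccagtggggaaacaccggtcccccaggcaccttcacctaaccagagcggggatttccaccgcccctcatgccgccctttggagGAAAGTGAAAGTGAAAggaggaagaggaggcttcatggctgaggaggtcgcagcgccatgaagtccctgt

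The windows searched reached 250 bases before and 50 after the start site. A match to the response element letters was found in 5 of the 7 promoters, against 1255 of all 35116 promoters of the same length in the table (3.57%). In HLA-F it spans bases -156 to -147 before the start site. B2M holds a pair of overlapping matches between -144 and -129, and TAP1 another such pair between -134 and -119. The match of TAP2 lies from -58 to -49. TAPBP, the gene that fell, holds an overlapping pair next to its start site, between -20 and -5. No match to these letters stands in the windows of HLA-B and HLA-C. The gamma-activated site was in 0 of the 7 windows, against 7.66% of all promoters, while RefSeq's second and more downstream TAP1 promoter has a match from -189 to -181. A CCAAT box was in 5 of the 7, against 34.6%, with 3 copies in HLA-B, 4 in HLA-C, 2 in HLA-F and 1 each in B2M and TAP1. In both HLA-B and HLA-C a copy starts at -56, and in HLA-F at -57. A match describes the letters of the window only. Looser forms of a motif were not searched, so a window without a match may still hold one.

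The comparison of each PARylator siRNA with control siRNA asked how the genes responded to each siRNA. Under siRNA.1, 8 of the 9 genes rose and TAPBP fell (edgeR's quasi-likelihood test, adjusted p under 0.05), where 30.3% of all genes tested were called, 15.0% higher and 15.2% lower. Under siRNA.2, again 8 rose and TAPBP fell, against 30.9% of all genes called, 15.8% higher and 15.1% lower. The deposited FPKM of the 3 siRNA libraries lay outside the range of the 3 control libraries for all 9 genes with each siRNA, with 8 above it and TAPBP below it. Of all genes, 37.7% did so under siRNA.1 (20.7% above, 17.0% below) and 39.6% under siRNA.2 (21.1% above, 18.5% below). Across the 9 genes the median log2 fold change came to 1.13 for siRNA.1 and 1.03 for siRNA.2, against -0.000565 and 0.00401 over all genes tested. Both comparisons use the same control libraries. Together the 9 genes took 0.237% to 0.244% of all counts in the control libraries, 0.539% to 0.560% under siRNA.1 and 0.459% to 0.485% under siRNA.2.

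**Figure D1:**
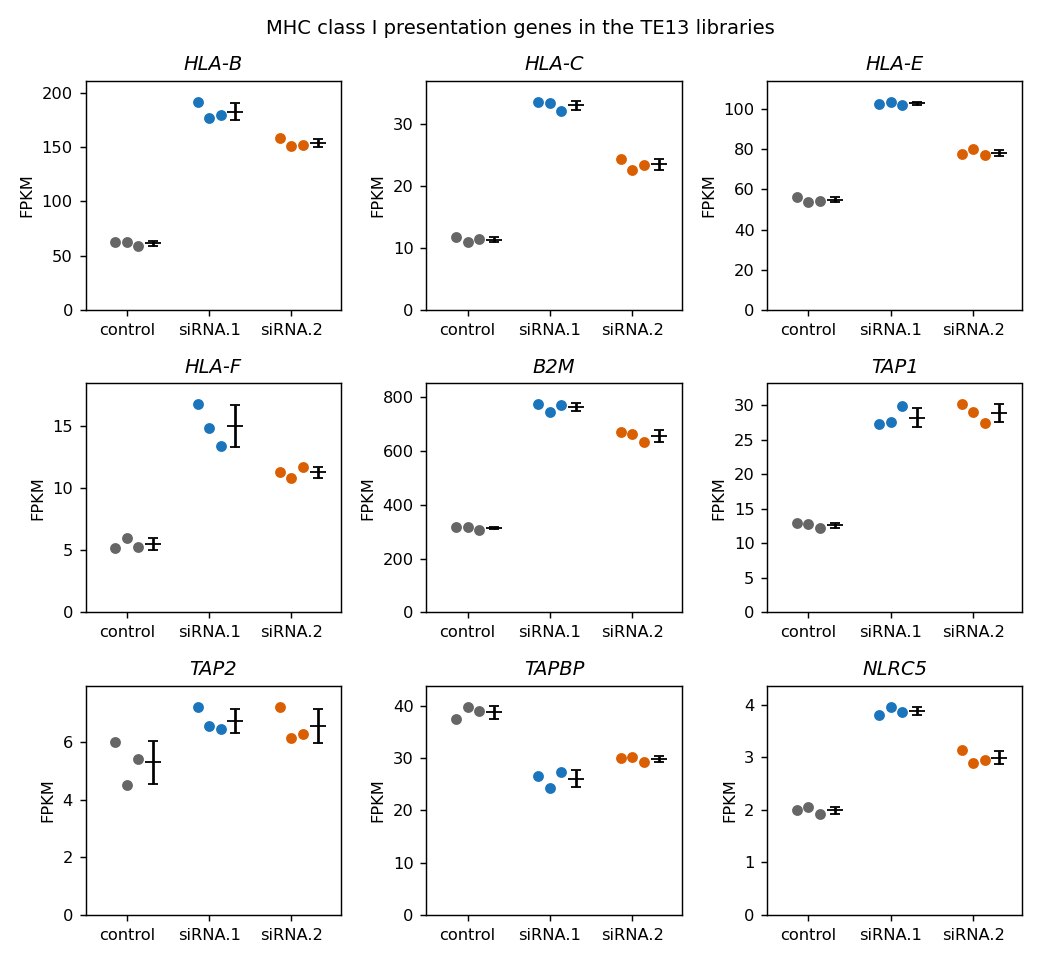
Deposited FPKM of the 9 genes in each library. Points are libraries (grey, control siRNA; blue, siRNA.1; orange, siRNA.2), and the bar beside each group is its mean ± SD (n = 3); TAPBP is the gene with lower values in the siRNA libraries, and TAP2 shows the smallest gap between the groups.

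The libraries are labelled as a single cultured cell line, and neither the labels nor the study describe other cell types in them. Bulk RNA does not show which cells carry a transcript, and blood cells carry abundant class I transcripts. Markers of other cell types are therefore given as levels only. The summed level of 10 blood cell markers was 5.54 to 6.63 FPKM in the control libraries, 7.89 to 8.81 under siRNA.1 and 7.41 to 8.73 under siRNA.2. The number over 1 FPKM on average was 1, 3 and 3. LYZ went from 0.07 to 0.49 FPKM to 2.61 to 3.12 and 2.78 to 3.32, and FCER1G from 0.07 to 0.27 to 1.01 to 1.11 and 1.24 to 1.62. LAPTM5 instead went from 4.83 to 5.09 FPKM to 2.38 to 3.45 and 2.27 to 2.58. PTPRC, which marks leukocytes as a whole, was at 0.02 to 0.05, 0.11 to 0.22 and 0.12 to 0.16 FPKM. The lymphocyte markers CD3E, CD2, CD79A and MS4A1 were at or below 0.17 FPKM in every library, and MS4A1 was at 0 in all 9. The part of these transcripts in the class I values was not tested. The 5 fibroblast markers summed to 2.19 to 2.49, 1.45 to 1.61 and 1.47 to 1.69 FPKM, with DCN at or below 0.01. The 3 endothelial markers summed to 1.20 to 1.54, 0.63 to 0.89 and 0.42 to 0.54 FPKM. Both sums were thus lower in the siRNA libraries than in the control libraries, though not every marker was. COL1A1, at 1.99, 1.39 and 1.40 FPKM on average, made up most of the fibroblast sum, while COL1A2 averaged 0.05, 0.033 and 0.083. VWF and CDH5 averaged lower with each siRNA, while PECAM1 averaged 0.027, 0.073 and 0.077 FPKM.

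The classical heavy chain genes HLA-B and HLA-C, whose products present peptides to CD8 T cells, rose to nearly 3 times their control level under siRNA.1. HLA-B was at 62.54, 62.55 and 58.63 FPKM in the control libraries, at 191.49, 176.86 and 179.07 under siRNA.1, and at 158.37, 151.32 and 151.45 under siRNA.2. No 2 groups overlapped, and siRNA.1 was the highest. The log2 fold change of HLA-B was 1.55 under siRNA.1 (SE, the standard error, 0.04, 2.93-fold, adjusted p = 2.51e-290 from edgeR) and 1.32 for siRNA.2 (SE 0.04, 2.49-fold, adjusted p = 6.93e-212). HLA-C stood much lower, at 11.78, 10.90 and 11.39 FPKM with control siRNA, 33.55, 33.31 and 32.10 under siRNA.1, and 24.34, 22.61 and 23.44 under siRNA.2. The groups were again separate and in the same order. Its log2 fold change reached 1.51 under siRNA.1 (SE 0.07, 2.85-fold, adjusted p = 3.27e-96 from edgeR) and 1.04 for siRNA.2 (SE 0.07, 2.05-fold, adjusted p = 1.2e-44).

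Of the nonclassical heavy chain genes, HLA-E, whose product is read mainly by the NKG2 receptors of natural killer cells, had smaller fold changes than HLA-F. HLA-E was at 56.23, 53.88 and 54.15 FPKM in the control libraries, 102.52, 103.46 and 102.14 under siRNA.1, and 77.60, 79.89 and 77.00 under siRNA.2, with no overlap between groups. This is a log2 fold change of 0.88 under siRNA.1 (SE 0.05, adjusted p = 7e-79 from edgeR) and 0.50 for siRNA.2 (SE 0.05, adjusted p = 5.62e-26). HLA-F, which can also reach the surface without peptide, was at 5.15, 6.02 and 5.26 FPKM with control siRNA. It was at 16.74, 14.86 and 13.37 under siRNA.1, the widest spread among libraries of any heavy chain in relation to its mean, and at 11.32, 10.78 and 11.71 under siRNA.2. All siRNA.1 libraries were above all siRNA.2 libraries, and these above all control libraries. HLA-F changed by 1.43 on the log2 scale under siRNA.1 (SE 0.08, adjusted p = 5.15e-72 from edgeR) and by 1.03 under siRNA.2 (SE 0.08, adjusted p = 2.01e-37).

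B2M encodes the light chain that class I heavy chains generally need to fold and reach the surface, and it was the most abundant of the 9 transcripts. Its level ranked 66 among all genes of the table in the control libraries. B2M was at 316.06, 315.64 and 306.93 FPKM with control siRNA, 772.10, 745.20 and 767.91 under siRNA.1, and 670.29, 663.27 and 631.21 under siRNA.2. The groups did not overlap, and siRNA.1 was above siRNA.2. The log2 fold change reached 1.26 under siRNA.1 (SE 0.03, 2.39-fold, with an adjusted p from edgeR too small to be written as a number) and 1.05 under siRNA.2 (SE 0.03, 2.08-fold, adjusted p = 6.43e-288).

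TAP1 and TAP2 encode the paired subunits of the peptide transporter, and TAP1 had the larger fold changes. TAP1 was at 12.95, 12.73 and 12.23 FPKM in the control libraries, 27.23, 27.51 and 29.82 under siRNA.1, and 30.11, 28.97 and 27.45 under siRNA.2. Both siRNA groups were above the control libraries and overlapped each other. The log2 fold change of TAP1 was 1.13 under siRNA.1 (SE 0.06, adjusted p = 2.82e-84 from edgeR) and 1.18 for siRNA.2 (SE 0.06, adjusted p = 4.12e-93). TAP2 was at 5.99, 4.50 and 5.42 FPKM with control siRNA, 7.23, 6.57 and 6.45 under siRNA.1, and 7.23, 6.14 and 6.30 under siRNA.2. The siRNA groups overlapped, and the lowest siRNA.2 library lay just above the highest control library. Its log2 fold change reached 0.32 under siRNA.1 (SE 0.08, adjusted p = 0.000371 from edgeR) and 0.29 for siRNA.2 (SE 0.08, adjusted p = 0.0011). Control replicate 2 was the lowest of the TAP2 values, and without it the log2 fold changes of 0.22 (adjusted p = 0.051 from edgeR) and 0.19 (adjusted p = 0.0959) no longer passed. The log2 ratio of TAP1 to TAP2 FPKM was 1.26 ± 0.21 (SD, n = 3) in the control libraries, 2.06 ± 0.15 under siRNA.1 and 2.14 ± 0.09 under siRNA.2, and each difference from control had an exact permutation p of 0.1 (two-sided), the smallest that 3 against 3 libraries allow.

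TAPBP encodes tapasin, which bridges the transporter and the empty heavy chain and favours binding of stable peptides, and it was the gene of the 9 that fell. TAPBP was at 37.45, 39.82 and 38.93 FPKM with control siRNA, 26.63, 24.31 and 27.29 under siRNA.1, and 30.02, 30.19 and 29.26 under siRNA.2. All siRNA libraries were below all control libraries, and those of siRNA.1 were the lowest. TAPBP fell by 0.60 on the log2 scale under siRNA.1 (SE 0.05, adjusted p = 2.02e-31 from edgeR) and by 0.39 under siRNA.2 (SE 0.05, adjusted p = 4.5e-14). At the exonic lengths of the deposited table, TAP1 stood below TAPBP in every control library and close to it in every siRNA library. The log2 ratio of TAP1 to TAPBP was -1.62 ± 0.07 (SD, n = 3), 0.11 ± 0.07 and -0.05 ± 0.05 with control siRNA, siRNA.1 and siRNA.2 (exact two-sided permutation p = 0.1 for each pair of conditions).

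NLRC5 had the lowest level of the 9 genes and rose with both siRNAs. NLRC5 was at 1.99, 2.06 and 1.92 FPKM in the control libraries, 3.80, 3.96 and 3.87 under siRNA.1, and 3.14, 2.89 and 2.95 under siRNA.2, which corresponds to between 378 and 836 counts per library. No groups overlapped. The log2 fold change of NLRC5 was 0.93 under siRNA.1 (SE 0.08, 1.91-fold, adjusted p = 3.58e-27 from edgeR) and 0.58 for siRNA.2 (SE 0.08, 1.49-fold, adjusted p = 1.14e-10).

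**Figure D2:**
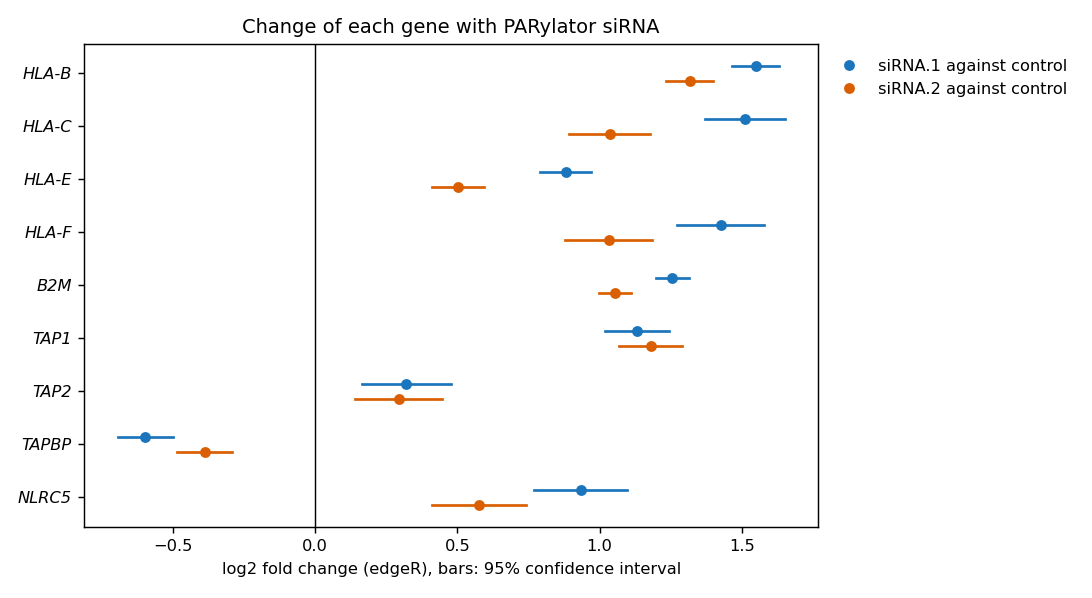
Log2 fold change of each gene against control siRNA in the edgeR fit. Points are estimates and bars their 95% confidence intervals (3 libraries per condition; blue, siRNA.1; orange, siRNA.2); 8 genes lie right of 0 and TAPBP left of it, and the intervals of both siRNAs overlap for TAP1 and TAP2 and for none of the other 7 genes.

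Between the siRNAs, 6 of the 9 genes were lower under siRNA.2 than under siRNA.1 and TAPBP was higher (edgeR), where 12.2% of all genes tested were called, 6.06% lower and 6.10% higher. The same 7 genes had FPKM that did not overlap between the siRNAs, as did 24.4% of all genes (11.3% higher and 13.1% lower under siRNA.2). The median log2 difference of the 9 genes was -0.23, against 0.00429 over all genes. The difference, siRNA.2 against siRNA.1, was widest for HLA-C, at -0.48 (SE 0.07, adjusted p = 3.95e-11 from edgeR). HLA-F followed at -0.39 (adjusted p = 1.43e-06), HLA-E at -0.38 (adjusted p = 6.73e-15) and NLRC5 at -0.36 (adjusted p = 0.000144), all from edgeR. HLA-B differed by -0.23 (adjusted p = 4.36e-07 from edgeR), B2M by -0.20 (adjusted p = 1.2e-10) and TAPBP by 0.21 (adjusted p = 0.000583). TAP1 and TAP2 did not pass, with a log2 difference of 0.05 (95% confidence interval -0.06 to 0.15, adjusted p = 0.685 from edgeR) and -0.03 (-0.18 to 0.12, adjusted p = 0.899). From highest to lowest, the order of conditions was siRNA.1, siRNA.2 and control for the 4 heavy chain genes, B2M and NLRC5, and the reverse for TAPBP. For TAP1 and TAP2 the siRNA groups overlapped, and control was lowest.

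Per length, B2M was the highest of the 9 genes in the control libraries with 313 ± 5.15 FPKM (SD, n = 3). HLA-B (61.2 ± 2.26), HLA-E (54.8 ± 1.29) and TAPBP (38.7 ± 1.20) followed, without overlap between neighbours. TAP1 (12.6 ± 0.37) and HLA-C (11.4 ± 0.44) came next, also apart from each other. HLA-F (5.48 ± 0.47) and TAP2 (5.30 ± 0.75) overlapped, and NLRC5 (1.99 ± 0.07) was last. Under siRNA.1, HLA-C (33.0 ± 0.78) stood above TAP1 (28.2 ± 1.42), which overlapped TAPBP (26.1 ± 1.57). Under siRNA.2, TAPBP (29.8 ± 0.50) and TAP1 (28.8 ± 1.33) overlapped and HLA-C (23.5 ± 0.87) stood below both. B2M, HLA-B and HLA-E kept this order in all 3 conditions at the exonic lengths of the deposited table. These levels and their order depend on those lengths, which differ from GENCODE release 44 for 5 of the 9 genes (B2M, HLA-B, TAP1, TAP2 and TAPBP). HLA-B has 3012 exonic bases in the deposited table and 4623 in GENCODE, and B2M 5455 and 3121. At the GENCODE length, with the counts kept, HLA-B would average 39.9 FPKM in the control libraries, below the 54.8 of HLA-E. It would average 119 under siRNA.1 and 100.1 under siRNA.2, still above the 103 and 78.2 of HLA-E. TAP1 would average 27.6 FPKM under siRNA.1 and 28.3 under siRNA.2 at the GENCODE length, above the 19.8 and 22.7 of TAPBP. Fold changes do not depend on the length.

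The summed FPKM of the 4 heavy chain genes was 135.7, 133.35 and 129.43 in the control libraries, 344.3, 328.49 and 326.68 under siRNA.1, and 271.63, 264.6 and 263.6 under siRNA.2. With their counts summed to 1 feature in the fit, the log2 fold change reached 1.30 under siRNA.1 (SE 0.04, adjusted p = 9.49e-263 from edgeR) and 1.00 for siRNA.2 (SE 0.04, adjusted p = 3.21e-156). In this pool of 4 genes HLA-B had a larger share in every siRNA library than in any control library, and HLA-E a smaller one. The sizes of the shares, like the levels, depend on the exonic lengths in the deposited table. HLA-B held 46.1% ± 0.80 (SD, n = 3) of the summed FPKM with control siRNA, 54.8% ± 0.89 under siRNA.1 and 57.6% ± 0.58 under siRNA.2. HLA-E held 41.2% ± 0.74, 30.8% ± 0.93 and 29.3% ± 0.82. For both genes each siRNA differed from control with an exact two-sided permutation p of 0.1, the smallest possible here. HLA-C held 8.55%, 9.90% and 8.80% (exact permutation p = 0.1 under siRNA.1 and 0.4 under siRNA.2), and HLA-F 4.12%, 4.49% and 4.23% (exact permutation p = 0.2 and 0.7). The log2 ratio of summed heavy chains to B2M was -1.24 ± 0.01, -1.19 ± 0.04 and -1.30 ± 0.03. The difference of this ratio from control was 0.04 under siRNA.1 (exact two-sided permutation p = 0.2) and -0.06 under siRNA.2 (exact permutation p = 0.1).

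**Figure D3:**
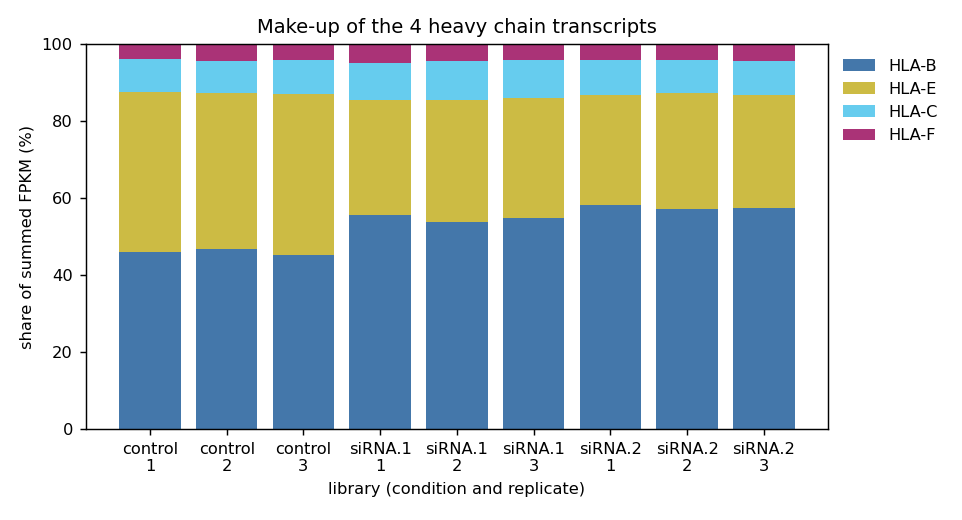
Share of each gene in the summed FPKM of HLA-B, HLA-E, HLA-C and HLA-F, in percent, for each of the 9 libraries. Stacked segments add to 100%; the HLA-B segment averages 46.1% in the control libraries and 54.8% and 57.6% under siRNA.1 and siRNA.2, and the HLA-E segment 41.2%, 30.8% and 29.3%.

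Exons of some of these genes overlap others, and the strand setting of the counting is not given in the sources used here. In GENCODE release 44, exons on the opposite strand cover 28.0% of the exonic bases of HLA-F, 21.0% of TAPBP, 14.8% of HLA-B and 14.2% of TAP1, and none of HLA-C, HLA-E, B2M, TAP2 or NLRC5. The lncRNA PSMB8-AS1, which overlaps TAP1, averaged 63 counts in the control libraries, 142 under siRNA.1 and 146 under siRNA.2, against 953 control counts of TAP1. HLA-F-AS1 averaged 33, 34.3 and 26 counts, against 384 control counts of HLA-F. The pseudogene ENSG00000271581, opposite HLA-B, averaged 0 counts in each condition, against 2996 control counts of HLA-B. Stretches of 50 bases that also occur in transcripts of another gene made up 30.5% of HLA-B, 18.5% of TAP2, 5.72% of TAPBP, 5.46% of HLA-C and 5.19% of HLA-E, below 1% of HLA-F and TAP1, and 0 of B2M and NLRC5. With HLA-C, 1.59% of the HLA-B stretches are shared, and with the pseudogene DHFRP2 27.9%. DHFRP2 overlaps the HLA-B model of GENCODE, which runs to 31367067. It is not among the genes that overlap the deposited HLA-B, which ends at 31357188. All these shares refer to the GENCODE models, so the shares within the counted exons may differ. The models are longer than the deposited ones for HLA-B, TAP1, TAP2 and TAPBP. For B2M the model is shorter (3121 exonic bases against 5455), so part of its counted exons was not checked. Counts in overlapped or shared stretches are uncertain for each gene that has them.

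The rest of the pathway was covered by 8 lists with 54 genes, of which 52 were tested. Under siRNA.1, 10 of the 52 rose and 13 fell, and under siRNA.2, 12 rose and 15 fell, while 8 rose and 10 fell with both. Of all genes tested, 30.3% were called under siRNA.1 and 30.9% under siRNA.2, about evenly in both directions, and nothing particular to any list is read from the counts that follow. Their median log2 fold change came to -0.0082 for siRNA.1 and -0.014 for siRNA.2, close to that of all genes. Between the siRNAs, 8 were higher under siRNA.2 and 7 lower, where 12.2% of all genes were called (6.10% higher and 6.06% lower).

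**Figure D4:**
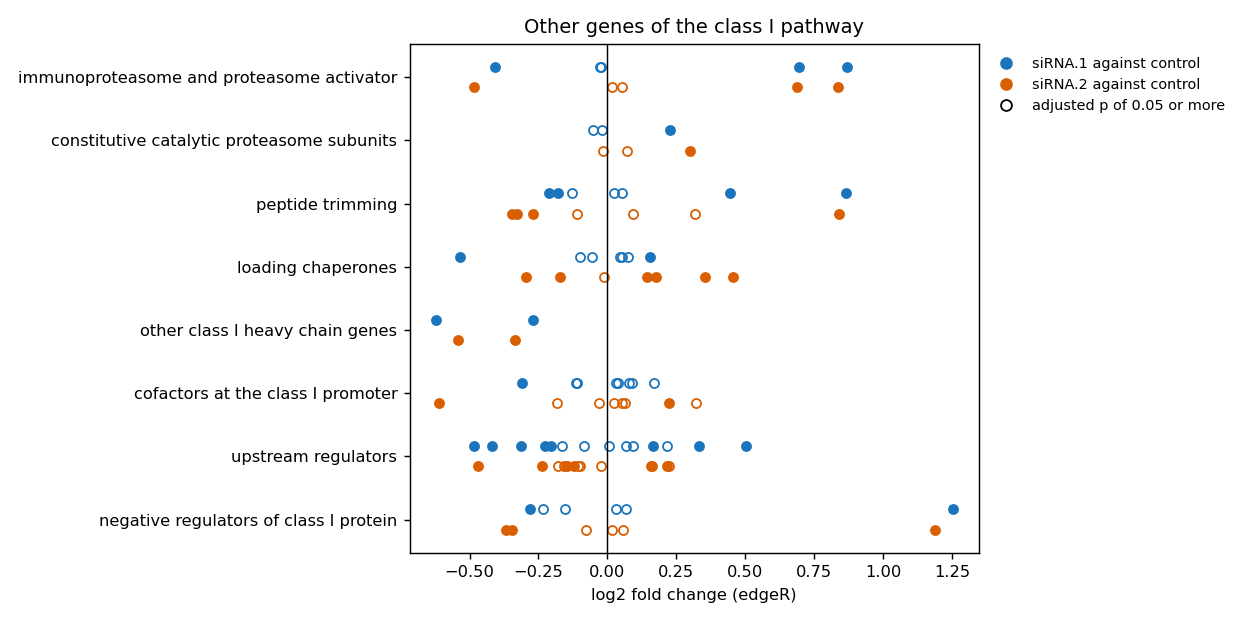
Log2 fold change of the 52 other pathway genes against control siRNA, by list. Each point is a gene (blue, siRNA.1; orange, siRNA.2; filled, adjusted p under 0.05 from edgeR); points lie on both sides of 0, and the gene farthest to the right is MARCHF4 among the negative regulators.

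Among the immunoproteasome genes, 2 of 5 rose and 1 fell with each siRNA. The inducible subunits PSMB8 and PSMB9, encoded beside the TAP genes, rose together. PSMB8 went from 13.41 to 14.98 FPKM in the control libraries to 22.12 to 24.12 under siRNA.1 and 22.77 to 23.05 under siRNA.2 (log2 fold change 0.69 with each, adjusted p = 3.05e-25 and 2.23e-25 from edgeR). PSMB9 went from 6.07 to 6.43 FPKM to 10.76 to 12.24 and 10.32 to 12.52 (log2 fold change 0.87 and 0.83, adjusted p = 7.47e-21 and 9.11e-20 from edgeR). In the deposited table, PSMB9 spans the whole of TAP1 on the opposite strand. The remaining inducible subunit, PSMB10, fell by 0.41 and 0.48 on the log2 scale (adjusted p = 0.00279 and 0.000206 from edgeR). The proteasome activator subunits PSME1 and PSME2 did not pass, with log2 fold changes between -0.03 and 0.05. Of the constitutive catalytic subunits that the inducible ones replace, PSMB7 rose by 0.23 and 0.30 (adjusted p = 1.33e-06 and 4.69e-11 from edgeR). PSMB5 and PSMB6 did not pass with either siRNA.

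Of the 7 peptide trimming enzymes, 2 rose and 2 fell under siRNA.1, and 1 rose and 3 fell under siRNA.2. The cytosolic leucine aminopeptidase LAP3 rose by 0.86 and 0.84 on the log2 scale (adjusted p = 1.51e-58 and 3.19e-56 from edgeR), from 22.71 to 24.76 FPKM in the control libraries to 43.18 to 44.05 and 40.75 to 43.89. ERAP1, which trims peptides inside the endoplasmic reticulum, fell by 0.21 and 0.35 (adjusted p = 0.00217 and 9.13e-08 from edgeR). Its relative ERAP2 rose by 0.45 under siRNA.1 (adjusted p = 0.00401 from edgeR) and had a value of 0.32 under siRNA.2 (adjusted p = 0.0508). The aminopeptidase NPEPPS fell by 0.18 and 0.33 (adjusted p = 0.00241 and 1.35e-09 from edgeR).

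Of the 7 loading chaperones, 1 rose and 1 fell under siRNA.1, and 4 rose and 2 fell under siRNA.2. BCAP31, an export factor of the endoplasmic reticulum, rose by 0.16 and 0.14 on the log2 scale (adjusted p = 0.0022 and 0.00477 from edgeR). UGGT1, the enzyme that checks glycoprotein folding for the loading complex, fell by 0.53 and 0.29 (adjusted p = 1.99e-26 and 8.28e-09 from edgeR). PDIA3, a disulfide isomerase bound to tapasin, and HSPA5, the main chaperone of the endoplasmic reticulum, rose under siRNA.2 by 0.36 and 0.46 (adjusted p = 2.76e-24 and 7.21e-43 from edgeR). Under siRNA.1 their log2 fold changes were 0.08 and 0.05, and siRNA.2 was higher than siRNA.1 by 0.28 for PDIA3 and 0.40 for HSPA5 (adjusted p = 1.52e-14 and 1.17e-32 from edgeR). The lectin chaperone CALR fell under siRNA.2 by 0.17 (adjusted p = 5.93e-06 from edgeR). TAPBPL, the tapasin relative that edits peptides outside the loading complex, had log2 fold changes of -0.10 and -0.01 and did not pass.

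Of 4 other genes of the class I heavy chain family, the 2 that could be tested fell with both siRNAs. MR1, which presents vitamin metabolites, fell by 0.27 and 0.33 on the log2 scale (adjusted p = 0.00117 and 3.1e-05 from edgeR), and HFE, a regulator of iron uptake, fell by 0.62 and 0.54 (adjusted p = 3.53e-05 and 0.000267 from edgeR). HLA-G, with at most 5 counts in a library, and CD1D, with at most 7, were below the filter and were not tested.

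Of the 8 cofactors that NLRC5 works with at class I promoters, 7 were not called under siRNA.1 and 6 under siRNA.2, where most of all genes were not called either. RFX5, RFXAP and RFXANK, the RFX complex, did not pass in either comparison, and neither did ATF1, NFYA or NFYC. RFXAP had the highest values of the complex, with log2 fold changes of 0.17 and 0.32. CREB1 fell by 0.31 and 0.61 (adjusted p = 2.11e-05 and 9.62e-19 from edgeR). NFYB rose under siRNA.2 by 0.22 (adjusted p = 0.00235 from edgeR), with a value of 0.04 for siRNA.1.

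Of the 14 upstream regulators, 3 rose and 5 fell under siRNA.1, and 2 rose and 4 fell under siRNA.2. STAT2, which carries the type I interferon signal, rose by 0.33 and 0.22 (adjusted p = 4.61e-09 and 0.000235 from edgeR). IRF9, its partner in the interferon-stimulated complex, rose by 0.50 under siRNA.1 (adjusted p = 2.72e-05 from edgeR) and had a value of 0.22 under siRNA.2 (adjusted p = 0.11). IRF1, a factor that binds class I promoters, fell by 0.31 and 0.24 (adjusted p = 3.62e-06 and 0.000547 from edgeR), from 6.59 to 6.87 FPKM in the control libraries to 5.44 to 5.81 over the siRNA libraries. The receptor kinase TYK2 fell by 0.42 and 0.47 (adjusted p = 1.94e-09 and 5.04e-12 from edgeR). NFKB1 fell by 0.49 under siRNA.1 (adjusted p = 1.31e-15 from edgeR) and had a value of -0.11 under siRNA.2 (adjusted p = 0.143). The interferon gamma receptor subunit IFNGR1 rose by 0.16 with each siRNA (adjusted p = 0.0231 and 0.0287 from edgeR).

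Among the 6 genes whose products lower class I protein, the ubiquitin ligase MARCHF4 rose with both siRNAs. It went from 0.85 to 1.57 FPKM in the control libraries to 3.04 to 3.38 under siRNA.1 and 2.97 to 3.07 under siRNA.2, a log2 fold change of 1.25 and 1.19 (adjusted p = 4.27e-18 and 1.2e-16 from edgeR). TMEM127, a member of a membrane complex that sends class I molecules to the lysosome, fell by 0.28 and 0.37 (adjusted p = 8e-06 and 1.28e-09 from edgeR). Its partner SUSD6 had a log2 fold change of -0.15 under siRNA.1 (adjusted p = 0.051 from edgeR) and fell by 0.34 under siRNA.2 (adjusted p = 4.07e-07). The autophagy receptor NBR1 had values of 0.03 and 0.02 and did not pass.

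The genes whose pattern over the 9 libraries was most like that of the class I genes were HCP5 (Pearson r = 0.999), LAMP3 (0.997), TRIM69, EPSTI1, NT5E and SERPINB2 (0.996 each), and RAP1GAP2, BLZF1, DUSP4 and IFI27 (0.995 each). The measure was the correlation of log2(FPKM + 0.1) with the mean profile of the 9 genes among the 11824 other genes that carry a symbol and average 1 FPKM or more. The 9 libraries fall into 3 conditions, so r mainly reflects the levels of the conditions. HCP5, a noncoding gene within the MHC, averaged 1.57 FPKM with control siRNA, 5.91 under siRNA.1 and 4.24 under siRNA.2. LAMP3, a lysosomal membrane protein gene, averaged 6.60, 25.8 and 19.4 FPKM. The same correlation was 0.997 for HLA-B and B2M, 0.993 for HLA-C, 0.986 for HLA-F, 0.979 for NLRC5, 0.970 for HLA-E, 0.967 for TAP1 and 0.812 for TAP2. It was -0.969 for TAPBP. Each of the 9 genes is itself part of the mean profile, which pulls its own r upward. Their values are therefore not comparable with those of the other genes.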

How the data were processed

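Poly(A)+ RNA of TE13 cells was sequenced on an Illumina NovaSeq. Per the study's methods, the authors ran FastQC on the reads, then STAR for alignment and featureCounts for gene counts. The submitters' processing notes name GRCh38 and featureCounts, while versions, annotation release and strand setting are not given in the sources used here. The authors deposited raw counts per gene, not normalized, beside FPKM, which scale those deposited counts by exonic length and library total. All per-library columns were used.

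Counts were tested with edgeR 4.0.16 in R 4.3.3 (quasi-likelihood, TMM scaling, factors 0.989 to 1.02) on 21395 genes (average FPKM of 0.1 or more), all 3 conditions in the same fit. Adjustment followed Benjamini and Hochberg, at 0.05. Standard errors (SE) were derived from the F statistic, as the size of the log2 fold change over the root of F. Ratios and shares used exact permutation tests. DESeq2 1.42.0 and limma 3.58.1 served as alternatives, beside other scalings, filters, a replicate block and each library left out. Scripts were tested on simulated data.

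Named genes are the 9 genes, those of the pathway lists with at least the 2 highest and 2 lowest of each, and the 10 genes most like the mean profile. The members and lists were chosen with earlier results of these data known. A few genes that these rules would name are not reported here. Promoters came from RefSeq (GRCh38.p14), exon overlaps and shared 50-base stretches from GENCODE release 44.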

Additional observations from a re-analysis of the deposited data

Results flagged for a closer look

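For 7 of the 9 genes the response to siRNA.1 differed from the response to siRNA.2 in a test of the difference itself (edgeR, siRNA.2 against siRNA.1, adjusted p under 0.05, 3 libraries per condition, every library of one siRNA on the same side of every library of the other). Of all genes tested, 12.2% were called between the siRNAs and 24.4% had FPKM that did not overlap. The log2 difference was -0.48 for HLA-C, -0.39 for HLA-F, -0.38 for HLA-E, -0.36 for NLRC5, -0.23 for HLA-B and -0.20 for B2M, so these genes rose less with siRNA.2. For TAPBP it was 0.21, so that TAPBP fell less with siRNA.2. Each of the 7 kept its direction and an adjusted p under 0.05 in all 20 alternative settings, in which the largest adjusted p was 0.0391, for TAPBP. What distinguishes the siRNAs was not tested.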

How the results depend on the processing

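Over 20 alternative settings, 533 of the 540 values of the 9 genes kept their direction and their side of the threshold, 5 lost the call and 2 turned, all 7 of them for TAP2, and over all genes the median log2 fold change stayed within 0.024 of 0. TAP2 with siRNA.2 gave 0.31, 0.27 and 0.31 in limma on log2(FPKM + 0.1), log2(FPKM + 1) and log2(FPKM + 0.01) (adjusted p 0.0693, 0.0734 and 0.069). Its difference between the siRNAs ranged from -0.090 to 0.029 with each library left out, turning to 0.029 without siRNA.1 replicate 1 and to 0.01 without siRNA.2 replicate 2. With each library left out, 7 to 8 of the genes were higher with each siRNA and 1 lower. Summing rows of the same symbol changed nothing, since each symbol has 1 row.

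A further limit, a log2 fold change of 1 or more in size, left 5 of the 9 genes higher and 0 lower with each siRNA, 1 of the other pathway genes higher and 0 lower, and 0 genes of either set between the siRNAs; it left 847, 861 and 130 of all genes in the comparisons of siRNA.1 and siRNA.2 with control and with each other. Between the siRNAs, DESeq2 called 5 and limma 4 pathway genes higher at each pseudocount, against 8, and limma called 1437, 1414 and 1449 of all genes at pseudocounts of 0.1, 1 and 0.01, against 2603. With each library left out, that count of pathway genes ranged from 5 to 8 higher (5 without siRNA.1 replicate 1) and from 3 to 7 lower (4 without siRNA.1 replicate 1, 3 without siRNA.1 replicate 3). The causes were not tested.

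Libraries that share only a replicate number did not deviate together (r from -0.147 to 0.070 over 9 pairs, against -0.060 to 0.135 over 18 pairs with different numbers). With a replicate block, 8 genes were higher and 1 lower with each siRNA, and 6215, 6359 and 2342 of all genes were called, against 6472, 6614 and 2603. Depth is lowest for HLA-F, NLRC5, HLA-C and TAP2, whose lowest control libraries hold 341, 378, 426 and 448 counts.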

Other observations

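Between the start of HLA-F and the end of TAPBP (chr6:29722775-33314387 in the deposited coordinates, a span chosen after the data were seen), 149 genes other than the 9 were tested. With siRNA.1, 22 of them were higher (14.8%) and 16 lower (10.7%), and with siRNA.2, 28 were higher (18.8%) and 18 lower (12.1%), in edgeR at an adjusted p under 0.05. Of all genes tested, 15.0% were higher and 15.2% lower with siRNA.1, and 15.8% and 15.1% with siRNA.2. The median log2 fold change over these 149 genes came to 0.02 for siRNA.1 and 0.01 for siRNA.2. Between the siRNAs, 12 were higher with siRNA.2 (8.05%) and 8 lower (5.37%), against 6.10% and 6.06% of all genes.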
